A study of Arabidopsis thaliana with 30 samples.

Results

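H4K5ac, an acetylation of the tail of histone H4, was compared between wild type (WT) and the brd1/2/13 mutant of Arabidopsis, which carries mutations in all 3 BRD genes. The 4 H4K5ac peak lists, 2 of WT and 2 of brd1/2/13, were merged over chromosomes 1 to 5 wherever peaks overlapped by at least 1 bp, which gave 22672 regions. All 20 peak lists of the series together held 349521 peaks. The series held 30 samples, of which 20 immunoprecipitated samples had a peak list and 10 were inputs that were not used here.

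Both genotypes were 14-day-old seedlings grown on 1/2 MS medium under long days, and the labels gave no ecotype and no mutant alleles. For comparison, the lists of H4K8ac in WT and brd1/2/13, of BRM-GFP, of BRM-GFP in brd1/2/13, and of BRD1-GFP, BRD2-GFP and BRD13-GFP were used, each with 2 replicates. The GFP lists came from lines that express a tagged protein, and the labels did not give the promoter. For the acetylation samples the labels list a GFP antibody, whereas their titles name the histone mark, and the titles were followed. The labels number the replicates as biological but do not say what was separate between them, so any p-value refers to the spread among these lists alone, part of which may be technical. The identity of the mark could not be checked from peak positions, since the GFP lists and H4K8ac also had most summits within 500 bp of a gene start.

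Acetylation of the histone H4 tail loosens the contact of the nucleosome with DNA and is typical of the first nucleosomes of transcribed genes. Acetylated lysines are read by bromodomains, a protein module that BRD1, BRD2 and BRD13 carry. These proteins are subunits of SWI/SNF complexes around the ATPase BRAHMA (BRM), which move or evict nucleosomes.

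The sequence at the summit, the base with the highest pileup of a peak, is shown for the leading regions of each kind, because their place inside genes is what the comparisons turn on. Each line gives 101 bases of the RefSeq TAIR10.1 genome centred on the summit, 5′ to 3′ on the strand of the named gene, and the capitals mark the 11 bases at the summit. Windows that touch an annotated UTR were not shown. The regions are BRD13 (chr5:22331485-22331585, minus strand) and AT5G50930 (chr5:20722813-20722913, plus strand), found only in WT, AT1G75945 (chr1:28515675-28515775, minus strand) and AT3G05955 (chr3:11585926-11586026, minus strand), found only in brd1/2/13, PEI1 (chr5:2373038-2373138, plus strand), the leading shared region that was stronger in brd1/2/13, and AT1G52330 (chr1:19489174-19489274, plus strand), the leading one that was weaker.
BRD13: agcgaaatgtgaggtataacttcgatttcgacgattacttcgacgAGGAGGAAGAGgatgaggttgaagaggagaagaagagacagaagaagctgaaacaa
AT5G50930: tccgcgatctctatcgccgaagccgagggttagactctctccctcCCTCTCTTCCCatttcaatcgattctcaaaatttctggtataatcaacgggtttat
AT1G75945: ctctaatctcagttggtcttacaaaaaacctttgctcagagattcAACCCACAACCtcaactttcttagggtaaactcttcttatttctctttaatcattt
AT3G05955: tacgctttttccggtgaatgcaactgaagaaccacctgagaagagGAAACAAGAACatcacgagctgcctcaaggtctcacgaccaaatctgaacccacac
PEI1: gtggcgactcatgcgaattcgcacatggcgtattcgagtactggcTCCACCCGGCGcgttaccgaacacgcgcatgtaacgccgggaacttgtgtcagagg
AT1G52330: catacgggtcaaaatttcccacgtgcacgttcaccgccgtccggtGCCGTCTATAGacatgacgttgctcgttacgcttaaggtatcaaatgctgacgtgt
The GC content of these windows ranged from 34.7% in AT1G75945 to 59.4% in PEI1. The BRD13, AT1G75945, PEI1 and AT1G52330 windows lie in coding sequence, the AT5G50930 window in an intron, and the AT3G05955 window across the gene's end, with the summit just downstream.

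The 3 mutated genes were examined first. With the alleles not given in the labels, peaks over them cannot be set against the mutated sites. BRD13 (AT5G55040, chromosome 5, 22326940 to 22332078) had a WT peak 537 and 543 bp downstream of its start, with a fold enrichment over background of 4.72 in replicate 1 and 4.88 in replicate 2. Neither brd1/2/13 list had a peak there. Instead, both had a peak near the end of the gene, 4425 and 4287 bp from the start, with folds of 2.13 and 1.94, where no WT list had one. H4K8ac gave the same picture at the start of BRD13, with WT folds of 5.28 and 5.37 and no peak of either brd1/2/13 list in the gene. The part of the mutant alleles themselves in these differences was not tested.

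BRD1 (AT1G20670, chromosome 1, 7164082 to 7168041) kept its peak at the gene start in all 4 lists, with folds of 3.56 and 4.14 in WT and 4.09 and 4.76 in brd1/2/13. That peak was 1004 and 963 bp wide in WT and 684 and 720 bp wide in brd1/2/13. The widths of the genotypes did not overlap, but the width test described below called 0 of 17716 shared regions, so not this one. In brd1/2/13 alone, BRD1 held a further pair of regions inside the gene. Their summits lay 1343 and 1411 bp from the start, with folds of 2.73 and 2.47, and 3395 and 3373 bp from the start, with folds of 2.83 and 2.65. H4K8ac had peaks near the latter place in both brd1/2/13 lists, with folds of 2.38 and 2.40, and in WT replicate 2 with a fold of 1.93.

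At BRD2 (AT1G76380, chromosome 1, 28651069 to 28654660) the peak inside the gene was found in all lists, with folds of 3.22 and 3.71 in WT and 3.71 and 3.63 in brd1/2/13. H4K8ac had a peak near the start of BRD2 in all its lists, with folds of 1.92 and 2.67 in WT and 2.97 and 3.47 in brd1/2/13. A further H4K8ac peak, 2733 and 3142 bp from the start with folds of 1.68 and 2.13, was found in the WT lists only. BRM (AT2G46020), which is intact in the mutant, had H4K5ac folds of 4.37 and 5.14 in WT and 5.23 and 5.07 in brd1/2/13. H4K5ac peak positions thus differed between the genotypes inside BRD1 and BRD13, while BRD2 had its H4K5ac peak in every list.

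**Figure D1:**
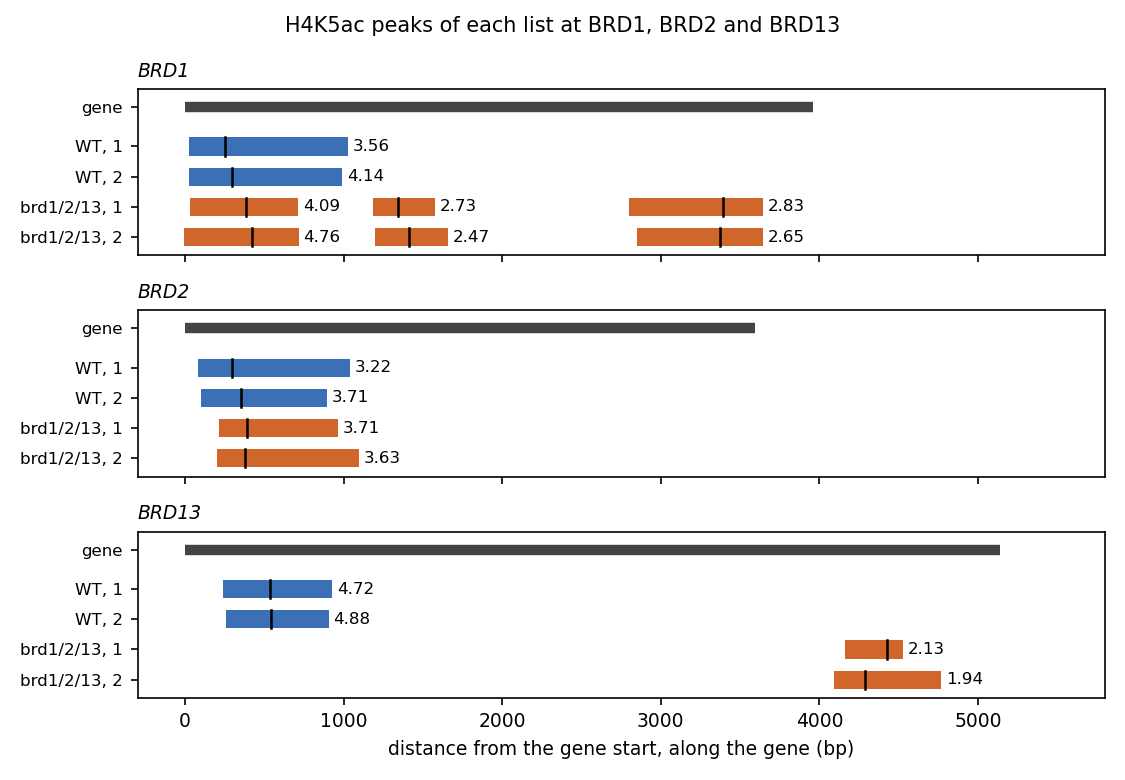
H4K5ac peaks of the 4 lists at BRD1, BRD2 and BRD13, drawn to scale in bp from the gene start (dark bar, the gene); bars are peaks, black ticks their summits and numbers their deposited fold enrichment. The BRD13 start has peaks of 4.72 and 4.88 fold in WT and none in brd1/2/13, while brd1/2/13 has peaks inside BRD1 and near the end of BRD13 that WT lacks.

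The next question was how much of the H4K5ac landscape was held by 1 genotype only. A region was called shared if all 4 lists had a peak in it, WT-only if both WT lists and no brd1/2/13 list had one, and mutant-only in the reverse case. Of the 22672 regions, 17716 (78.1%) were shared, 171 were WT-only and 524 were mutant-only. The remaining 4261 (18.8%) fell in none of these classes and are called regions that followed no genotype. Of these 4261 regions, 2248 had a peak in 1 list, 718 in 1 list of each genotype, and 1295 in 3 lists. Those of 1 list numbered 439 and 401 for the WT lists and 684 and 724 for the brd1/2/13 lists. The remainder is thus not free of a difference between genotypes. The WT-only regions were 0.932% of the 18348 regions with a peak in both WT lists, and the mutant-only regions 2.75% of the 19074 regions with a peak in both brd1/2/13 lists.

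With regions merged as above, the count of WT-only regions was within the range of pairs that mix the genotypes. With the central 200 bp of each peak or with equal numbers of peaks, it lay above that range. Regions held by 1 WT list and 1 brd1/2/13 list alone numbered 192, 167, 172 and 187 in the 4 possible pairs, against 171 for the WT pair. The 524 mutant-only regions stood above all of these pairs. Among regions of 3 lists, 834 lacked a peak in 1 WT list and 461 lacked one in 1 brd1/2/13 list. In the exact permutation test over lists (two-sided, 3 splits of 2 against 2), the 695 regions of a single genotype gave p = 0.333, the smallest p that this design allows.

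The brd1/2/13 lists were also the longer ones, and the low end of their background coverage was slightly higher. WT had 20031 and 19982 peaks and brd1/2/13 had 20739 and 20742. The local background of each peak was solved from its fold and p-value, except for the strongest peaks. The background coverage of a list is a low quantile of these values, not their mean. It was 24.2 and 26.8 reads in WT and 28.6 and 27.4 reads in brd1/2/13. With every list cut to its 19982 best peaks, 271 regions were WT-only and 357 mutant-only, while the mixed pairs held 158 to 180.

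**Figure D2:**
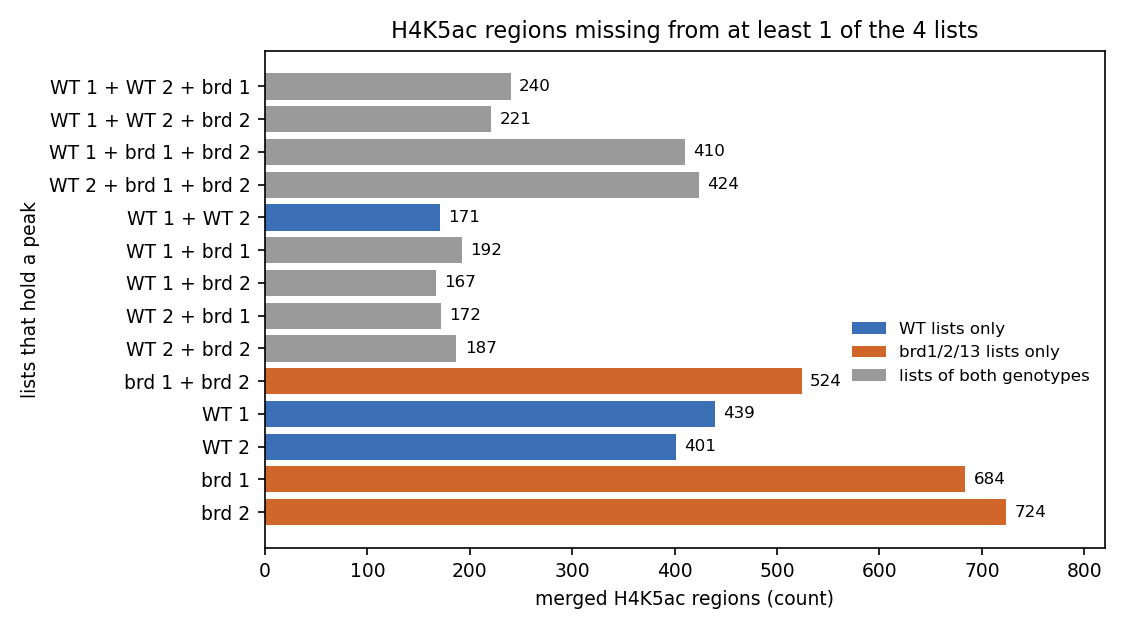
Number of merged H4K5ac regions for every combination of lists except all 4, with bars in blue for WT lists only, orange for brd1/2/13 (brd) lists only and grey for lists of both genotypes. The WT pair (171) lies among the mixed pairs (167 to 192), and the brd1/2/13 pair (524) lies above them.

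The lists as wholes were close to each other. They covered 15.5 ± 0.0111 Mb in WT and 16.0 ± 0.0225 Mb in brd1/2/13 (mean ± SD, n = 2 lists each), and the mean difference was 0.558 Mb. The median peak width was 704 bp in both WT lists and 697 and 701 bp in brd1/2/13. Summits within 500 bp of an annotated gene start made up 75.1% ± 0.208 of the WT peaks and 75.3% ± 0.0605 of the brd1/2/13 peaks (SD, n = 2). The exact permutation tests over lists gave p = 0.333 for covered length, p = 0.333 for width and p = 0.667 for the share near starts, and none could have gone below 0.333. The bases covered by any 2 lists, as the shared part of their union, came to 0.792 between the WT replicates, 0.798 between the brd1/2/13 replicates and 0.770 to 0.779 between genotypes.

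Regions of a single genotype were weaker and narrower than shared ones, as were the regions that followed no genotype. The median fold was 1.94 (quartiles 1.81 and 2.07) in WT-only regions and 1.98 (1.84 and 2.17) in mutant-only regions, against 4.43 (3.10 and 5.74) in shared regions. Their median widths were 474 bp, 468 bp and 849 bp. These are widths of merged regions, which join the peaks of every list in the region. Shared regions join the most lists, so part of this difference follows from the merging. In shared regions the median width covered by each list alone was 735 to 738 bp. Regions that followed no genotype had a median fold of 1.92 and a median width of 405 bp. In the WT lists, 62.0% and 67.3% of the WT-only peaks ranked in the weakest 10% of their list by score, and in the brd1/2/13 lists 52.1% and 49.2% of the mutant-only peaks did. BRD13 was the only WT-only region that ranked above the median of either WT list, and AT1G75945 the only mutant-only region above the median of a brd1/2/13 list, that of replicate 2.

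Because strength and class went together, the 4429 shared regions in the weakest 25% by mean fold were set beside the classes. Their median fold was 2.48 and their median merged width 712 bp, so they were still stronger and, as merged, wider than regions of a single genotype.

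In all classes the summit fell mostly into coding sequence, which held 52.0% of WT-only, 58.0% of mutant-only and 58.0% of shared summits. The 5′ UTR held 20.7% of shared summits (95% exact Clopper-Pearson interval 20.1% to 21.3%), but 9.94% of WT-only (5.90% to 15.4%) and 6.49% of mutant-only summits (4.54% to 8.95%). Such intervals cover counting error only, since regions are not replicates. Introns held 13.7% of shared, 11.1% of WT-only and 7.06% of mutant-only summits.

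The 1 kb upstream of a gene held 12.3% of WT-only summits (7.77% to 18.16%), 6.68% of mutant-only summits (4.70% to 9.17%) and 1.90% of shared summits. Intergenic summits made up 5.53% of mutant-only, 2.34% of WT-only and 0.615% of shared regions. Within 500 bp of a gene start lay 79.3% of shared summits, 60.5% of those in the weakest 25%, 47.4% of WT-only and 49.6% of mutant-only summits. Inside genes, the median shared summit lay at 13.7% of the gene's length, the WT-only summit at 36.0% and the mutant-only summit at 38.6%. The 4261 regions that followed no genotype were like those of a single genotype, with 48.7% within 500 bp of a start, 6.01% in a 5′ UTR, 9.55% in the upstream 1 kb and a median position of 37.5%.

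**Figure D3:**
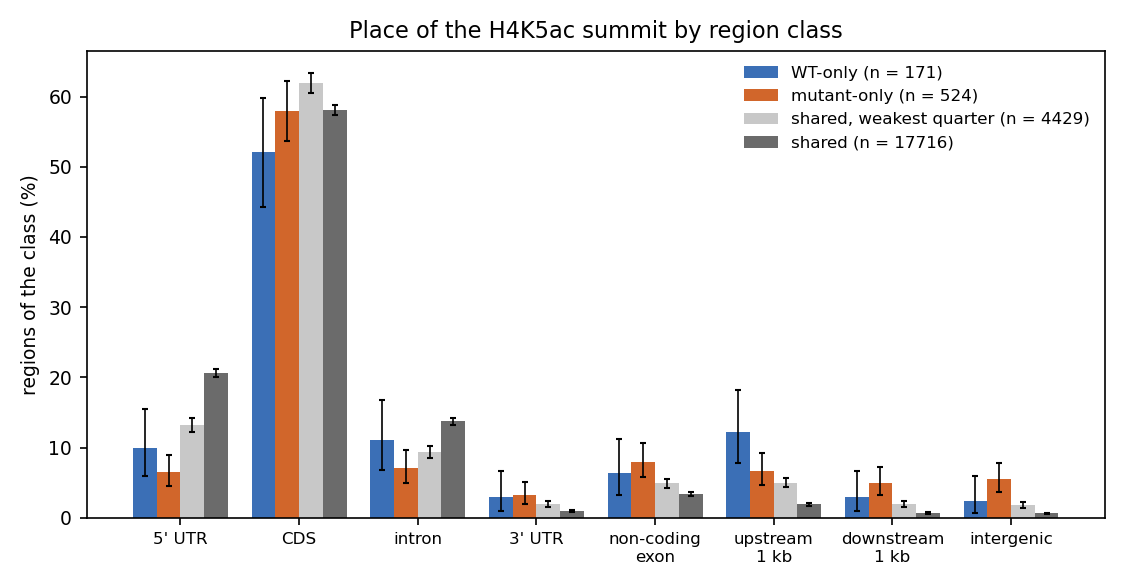
Share of regions (%, y axis) by the annotated place of the summit for WT-only, mutant-only, weak shared and all shared regions; error bars are 95% exact binomial intervals. The 5′ UTR holds 20.7% of shared but 6.49% of mutant-only summits, and the upstream 1 kb holds 12.3% of WT-only but 1.90% of shared summits.

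The genes that held the summits differed between classes as well. Protein-coding genes held 93.3% of shared, 76.0% of WT-only and 74.2% of mutant-only summits, and no gene was annotated at 3.21%, 17.5% and 17.2%. Long non-coding RNA genes held 0.993% of shared, 2.92% of WT-only and 3.24% of mutant-only summits, and pseudogenes 1.3%, 1.17% and 3.44%. The WT-only and mutant-only values lay within each other's 95% intervals for protein-coding genes and long non-coding RNA genes. For pseudogenes, the WT-only share came from 2 regions, with an interval of 0.142% to 4.16% against 2.05% to 5.37% for mutant-only regions.

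The bases around the summit, 201 bp in all, had a median GC content of 43.3% in shared, 40.8% in WT-only and 42.3% in mutant-only regions, against 36.3% in windows of that length tiled along the chromosomes. The repeat GAGAGA, searched on both strands, was found in 35.4% of shared, 22.2% of WT-only and 26.5% of mutant-only windows and in 17.3% of the tiled windows. The telo-box AAACCCTA was found in 8.22%, 6.43%, 3.05% and 2.64%, in the same order. Matches of different motifs were counted independently and may overlap. TATAAA was found in 8.33% of shared, 9.94% of WT-only, 14.3% of mutant-only and 25.6% of the tiled windows. CACGTG and TGGGCC ranged from 0.585% to 4.2% across the classes and the tiled windows.

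Occupancy by BRM and the BRD proteins was close in WT-only and mutant-only regions and higher in shared ones. BRM-GFP regions, found in both replicates, overlapped 64.7% of shared regions (95% exact interval 64.0% to 65.4%), 40.9% of WT-only (33.5% to 48.7%) and 37.4% of mutant-only regions (33.2% to 41.7%). BRD1-GFP overlapped 76.2% of shared, 47.4% of WT-only and 46.4% of mutant-only regions, BRD2-GFP 73.0%, 41.5% and 43.9%, and BRD13-GFP 61.1%, 40.9% and 41.0%. None of the 4 proteins was found in 19.7% of shared, 48.0% of WT-only and 47.9% of mutant-only regions. In the regions that followed no genotype, BRM-GFP overlapped 30.9%, BRD1-GFP 38.7%, BRD2-GFP 33.8% and BRD13-GFP 31.5%, and 56.6% held none of the 4. In the weak shared regions, BRM-GFP overlapped 57.0% and BRD1-GFP 66.7%, values between those of the shared and the single-genotype regions. Wider merged regions also leave more room for an overlap. The part of width in these shares, and in those of H4K8ac below, was not tested. Without WT replicate 1 or WT replicate 2, the BRM-GFP share of WT-only regions was 30.2% or 26.7%, as regions of the remaining list alone then counted.

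The fate of BRM in the mutant was followed at the same regions. A BRM-GFP region without any overlapping peak of BRM-GFP in brd1/2/13 was present at 32.5% of shared, 27.5% of WT-only and 20.8% of mutant-only regions. The brd1/2/13 lists of BRM-GFP held 6129 and 7044 peaks with q-values up to 0.00997, against 15562 and 16971 peaks with q-values up to 0.0499 for BRM-GFP, so the lists follow different thresholds and a lost region may lie below the stricter one. A BRM-GFP region found in both genotypes was present at 23.4%, 10.5% and 11.6%. H4K5ac was thus found in all 4 lists at 5764 regions where BRM-GFP was lost in brd1/2/13.

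H4K8ac peaks of both replicates were less frequent in the single-genotype regions than in shared ones. In WT-only regions they were about as frequent as in regions that followed no genotype. In mutant-only regions, those of brd1/2/13 were more frequent than there. Both WT lists of H4K8ac had a peak at 89.3% of the shared H4K5ac regions, at 22.2% of WT-only and at 22.3% of mutant-only regions, and at 19.8% of the 4261 regions that followed no genotype. Both brd1/2/13 lists of H4K8ac had one at 89.1%, 21.1% (95% exact interval 15.2% to 27.9%) and 29.0% (25.2% to 33.1%), and at 22.1% of the regions that followed no genotype. No H4K8ac list had a peak at 47.4% of WT-only, 34.2% of mutant-only, 46.3% of no-genotype and 2.38% of shared regions. Few regions of a single genotype had the same class in both marks, since 4.39% of the mutant-only regions were mutant-only in H4K8ac as well and 1.17% of the WT-only regions were WT-only in it. Of the regions that followed no genotype, 3.24% were mutant-only and 2.14% WT-only in H4K8ac. For H4K8ac itself, 341 regions were WT-only and 430 mutant-only, with 243 to 269 in the mixed pairs.

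**Figure D4:**
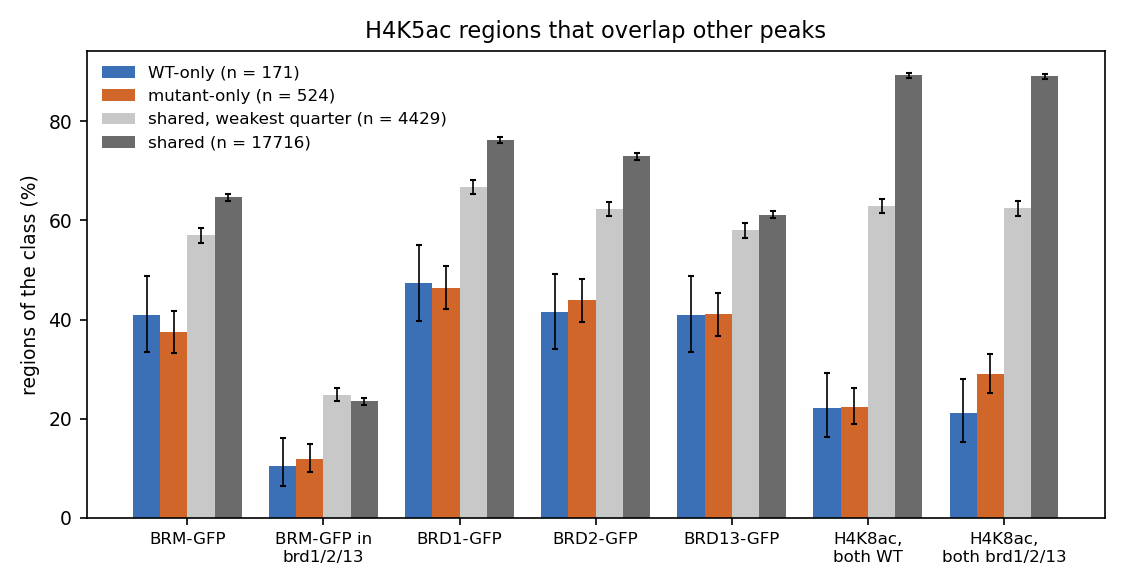
Share of H4K5ac regions (%, y axis) that overlap regions of BRM-GFP, BRM-GFP in brd1/2/13, the BRD-GFP proteins or H4K8ac peaks of both lists of a genotype; error bars are 95% exact binomial intervals. Overlap with BRM-GFP is 64.7% in shared, 40.9% in WT-only and 37.4% in mutant-only regions.

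The 10 leading WT-only regions were those with the best rank by score in both WT lists. After BRD13, the leading region lay in an intron of AT5G50930 (chromosome 5, 20722596 to 20723073), which codes for a histone superfamily protein, with WT folds of 2.66 and 2.59. A region in AT4G02170, annotated as a cotton fiber protein, followed with folds of 2.50 and 2.66. BRH1, a RING-type ubiquitin ligase that responds to brassinosteroid, had folds of 2.54 and 2.45. These 3 were far below the 4.72 and 4.88 of BRD13.

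A region at -693 bp from the start of NPR1, the salicylic acid receptor of the immune response, had WT folds of 2.34 and 2.73. UTR1, a nucleotide sugar transporter, had folds of 2.38 and 2.25, and LBD26, a lateral organ boundary domain gene, had folds of 2.42 and 2.27. The DNA glycosylase gene AT1G13635 had folds of 2.42 and 2.48 and the MATE efflux carrier gene AT4G21910 folds of 2.38 and 2.52. The region at -27 bp from the start of AT4G02180, a DC1 domain gene next to AT4G02170, had folds of 2.34 and 2.81. No brd1/2/13 list had a peak in any of the 10 regions.

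Leading the mutant-only regions, AT1G75945 (chromosome 1, 28515397 to 28515943), an uncharacterized protein-coding gene, had brd1/2/13 folds of 3.98 and 5.50 at its start. AT3G05955, a non-coding RNA gene, had a region across its 3′ end, with the summit past the end (chromosome 3, 11585748 to 11586350) with folds of 3.68 and 3.35. AT5G56960, a bHLH transcription factor gene, had folds of 3.27 and 3.31 in its 5′ UTR.

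AT2G03290, a p24 family gene of vesicle transport, had folds of 3.47 and 3.14, and AT5G05180, annotated as myosin heavy chain-like, had folds of 3.31 and 3.10. The long non-coding RNA genes AT1G07763 and AT4G09995 had folds of 3.08 and 3.81 and of 3.07 and 2.85. The sugar transporter-like gene AT3G05165 had folds of 2.80 and 2.99. Both RING-type genes AT5G41430 and AT1G50350 were among the 10 as well, with folds of 2.80 and 3.03 and of 3.43 and 2.63. No WT list of H4K5ac had a peak in these 10 regions. Both brd1/2/13 lists of H4K8ac had a peak in 7 of them, against 29.0% of all mutant-only regions. Among the 7, AT5G56960, AT2G03290, AT5G05180 and AT1G07763 had a H4K8ac peak in WT as well.

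At shared regions, the strength of H4K5ac was compared as log2 of the fold of the best peak, less the list's median over shared regions. This removes the general difference between lists, whose medians were 2.1 and 2.11 in WT and 2.18 and 2.17 in brd1/2/13. By limma, 451 of the 17716 shared regions (2.55%) passed an adjusted p of 0.05 (Benjamini-Hochberg over all regions), of which 242 (1.37%) were higher and 209 (1.18%) lower in brd1/2/13. The median size of the called changes was 0.48 for rises and 0.47 for falls on the log2 scale. Without centring on the list, 741 regions were called, 626 higher and 115 lower, and the median over all regions shifted by 0.07, so the direction is relative to the list.

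The SD over regions was 0.18 on the log2 scale for the difference of the 2 WT lists, 0.18 for that of the brd1/2/13 lists and 0.18 for that of the genotype means, where replicate spread alone would give 0.13 for means of 2 lists. Each genotype had a single H4K5ac input, and the use of inputs is not given. If inputs served as background, a difference between them would be common to both lists of a genotype. Replicate spread would not measure such a difference, and it cannot be told apart from genotype here. Leaving out WT replicate 1 left 220 calls, WT replicate 2 left 205, brd1/2/13 replicate 1 left 165 and brd1/2/13 replicate 2 left 171. Of the 451 calls, 174, 171, 141 and 152 remained, in the same order, and all 451 kept their sign.

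PEI1 (AT5G07500), a zinc finger gene known from embryo development, led the rises. Its fold was 5.02 and 5.51 in WT and 10.8 and 8.81 in brd1/2/13, a log2 change of 0.82 ± 0.10 (SE; limma adjusted p = 7.9e-09). The region at SLP2 (AT4G34980), a subtilisin-like protease gene, had folds of 3.71 and 4.22 in WT and 7.56 and 6.27 in brd1/2/13, a log2 change of 0.73 ± 0.12 (limma adjusted p = 2.0e-05). In both, the genotypes did not overlap, which largely follows from choosing the regions by this test.

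AT3G56210, an ARM repeat gene, rose from 2.3 and 2.23 to 4.28 and 4.33 in its 3′ UTR, the largest of the 5 leading rises at 0.86 on the log2 scale. HPR3, a hydroxypyruvate reductase gene of photorespiration, rose from 6.59 and 4.79 to 9.61 and 8.70. AT5G46295, an uncharacterized gene, rose from 2.26 and 2.34 to 4.04 and 4.62. The call at HPR3 was lost without WT replicate 2 (limma adjusted p = 0.074, with a range of 4.5e-08 to 0.007 over the other alternatives).

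AT1G52330, a LEA family gene, led the falls. Its fold was 3.25 and 3.92 in WT and 1.83 and 1.55 in brd1/2/13, a log2 change of -1.16 ± 0.15 (SE; limma adjusted p = 1.1e-08), the largest change in either direction. DCL2, a Dicer enzyme that makes antiviral small RNAs, fell from 3.93 and 3.24 to 1.86 and 2.08. AT3G57170, a Gpi1 family gene of lipid anchor synthesis, fell from 5.56 and 5.90 to 3.17 and 3.78.

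EICBP.B (AT5G09410), which codes for a calmodulin-binding transcription activator, fell from 6.55 and 7.05 to 4.65 and 4.44. GB1 (AT5G52210), a GTP-binding protein gene, fell from 6.87 and 7.60 to 4.93 and 5.04. BRM-GFP occupied 3 of these 5 falling regions, all of which held no BRM-GFP region in brd1/2/13, and 4 of the 5 leading rises, of which 3 kept it. Over all called regions, BRM-GFP was lost at 33.9% of the rises and 34.9% of the falls.

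**Figure D5:**
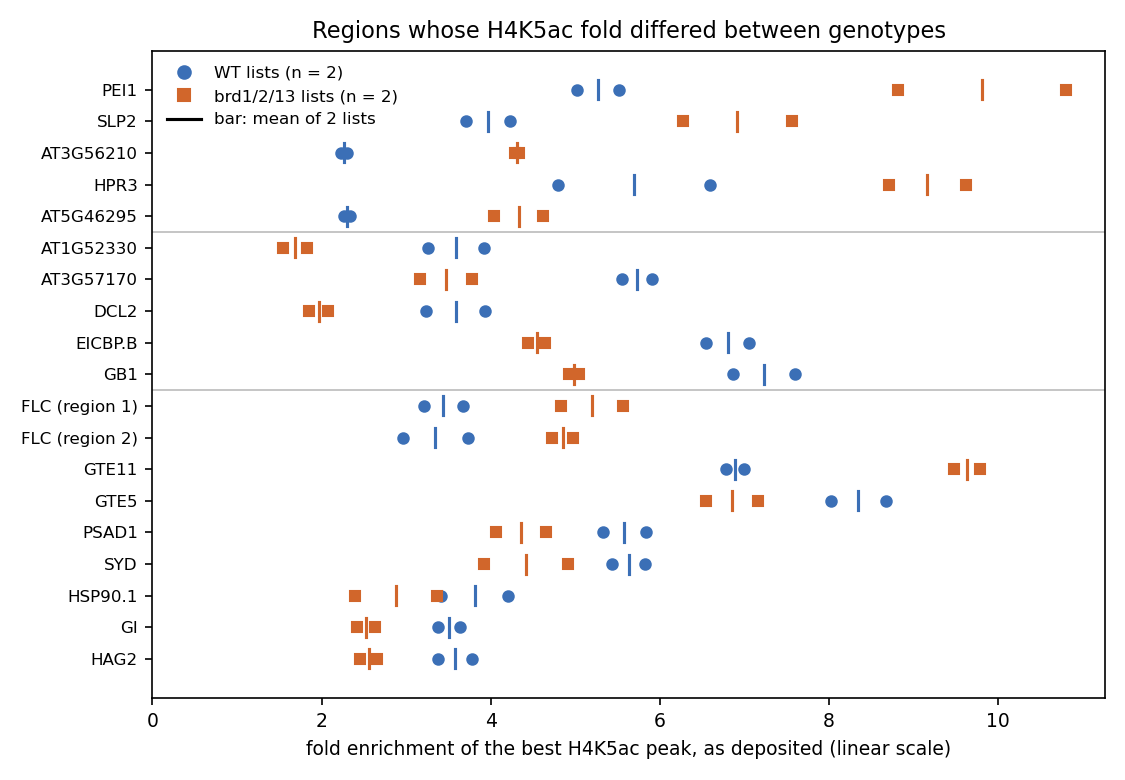
Deposited fold enrichment of the best H4K5ac peak (linear x axis) in each list for the 5 leading rises, the 5 leading falls and the called regions near genes of the pathway lists; points are lists, and short bars the mean of 2. In every region drawn, both brd1/2/13 values lie on 1 side of both WT values, by the narrowest margin at HSP90.1. The regions were chosen by a test on these folds, so this separation is not a further result.

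The called regions were not distributed like all shared regions. Of the rises, 69.0% had their summit in coding sequence and 14.9% in a 5′ UTR, against 52.6% and 25.8% of the falls and 58.0% and 20.7% of all shared regions. Their median GC content was 47.3% at rises, 42.3% at falls and 43.3% in all shared regions. Base composition thus moved with the direction of the change, and its part in the result was not tested. BRM-GFP overlapped 76.9% of the rises and 67.0% of the falls, against 64.7% of all, and BRD13-GFP overlapped 70.2%, 58.9% and 61.1%. The called regions were also stronger, with median folds of 5.10 at rises and 5.03 at falls against 4.43. The part of strength in these shares was not tested.

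BRM-GFP loss was set beside H4K5ac strength. At the 5764 shared regions where BRM-GFP was lost in brd1/2/13, 82 rose and 73 fell (2.69% called), and the median log2 change was -0.0076. At the 4143 regions where it was kept, 78 rose and 46 fell (2.99%), with a median of 0.01. At the 3492 regions without BRM or any BRD protein, 24 rose and 35 fell (1.69%), with a median of -0.01. The differences between these medians were not tested. Of the weakest 25% of shared regions 1.42% were called, and of the strongest 25% 3.57%.

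H4K8ac was read at the same regions in its own 4 lists. Of the 242 rises, 221 had a H4K8ac peak in each of those lists, and H4K8ac was higher in brd1/2/13 at 139 of them (62.9%), against 49.7% of all 15006 regions so measured. Of the 209 falls, 191 had such peaks, and H4K8ac was lower at 103. The median H4K8ac change was 0.07 at the rises and -0.03 at the falls, against H4K5ac medians of 0.46 and -0.47 at these regions. The H4K5ac values at these regions are what chose them, so only the H4K8ac values are free of that choice.

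The difference between the marks was tested as the interaction of mark and genotype in limma, a test added after the data had been seen. It called 132 of 15010 regions (0.879%). Among them were 32 of the 221 H4K5ac rises and 28 of the 191 falls that had H4K8ac peaks. The H4K5ac folds that chose the rises and falls also enter this test, so this overlap is not a further result. At CRCK2, a receptor-like cytoplasmic kinase gene, H4K5ac changed by -0.57 and H4K8ac by 0.41, a difference of -0.98 ± 0.17 (SE; limma adjusted p = 0.00033). At SUVH3, a SET domain gene, H4K5ac changed by 0.48 and H4K8ac by -0.41 (limma adjusted p = 0.0086). The count fell to 21 without brd1/2/13 replicate 1 of H4K5ac, to 28 and 36 without WT replicates 1 and 2, and to 29 without brd1/2/13 replicate 2. Without the H4K8ac lists it was 74 and 47 for WT replicates 1 and 2 and 87 and 100 for brd1/2/13 replicates 1 and 2.

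Region width did not pass the test anywhere. By limma on log2 of the bases covered, 0 of 17716 shared regions (0%) passed, while 1315 had an unadjusted p under 0.05. The median change was 0.01, and the SD over regions was 0.30 between the WT lists, 0.27 between the brd1/2/13 lists and 0.23 between the genotype means, where replicate spread alone would give 0.20. BRD1, described above, was among the regions that did not pass. The weakest 25% of shared regions had a median change of 0.06, and the strongest 25% one of -0.0069. Set against the width change of H4K8ac over 15010 regions with a peak in all 8 lists, the change differed in 0 regions (0%) by the limma interaction, with 1143 at an unadjusted p under 0.05.

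Summit positions were compared along the direction of the gene whose start is nearest to the mean of the 4 summits, in the 16871 shared regions with exactly 1 peak in each list. The median shift was -5 bp, that is 5 bp toward the gene start in brd1/2/13. In size, without the sign, the summits differed by a median of 38 bp between the WT lists, 35 bp between the brd1/2/13 lists and 27 bp between the genotype means. By limma, 60 regions (0.356%) passed, 32 (0.190%) with the brd1/2/13 summit downstream and 28 (0.166%) with it upstream. This split depended on the gene that gave the direction, being 23 and 37 with the gene nearest to the WT summits and 42 and 18 with that nearest to the brd1/2/13 summits.

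These calls were also fragile. Leaving out WT replicate 1, WT replicate 2, brd1/2/13 replicate 1 or brd1/2/13 replicate 2 left 0 calls each, with 1125, 1237, 835 and 828 regions at an unadjusted limma p under 0.05, although all 60 kept their direction. A fit with the replicate number as a block left 0 calls too, with 871 at an unadjusted p under 0.05.

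The shifted regions were wide, which follows in part from their choice, since a large shift needs a wide region. Their median width was 1606.5 bp for downstream and 1557 bp for upstream shifts, against 835 bp over all regions tested. The called shifts were 343 bp or more in size. At AT4G38225, a glycerol kinase gene on chromosome 4, the summits lay at -1701 and -1601 bp from the start in WT and at 182 and 211 bp in brd1/2/13 within a region of 3196 bp. At AT5G10830, a methyltransferase gene, they lay at -369 and -385 bp in WT and at 740 and 763 bp in brd1/2/13. In the opposite direction, the summits near AT1G53350, a disease resistance gene of the NLR class, lay at 214 and 193 bp in WT and at -1095 and -1059 bp in brd1/2/13. At these regions the folds of the genotypes were close, for example 6.39 and 6.91 in WT and 7.46 and 7.01 in brd1/2/13 at AT4G38225.

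Genes were then classed by the peaks in their body and the 1 kb upstream. Of 37899 genes, 21747 (57.4%) had a peak in all 4 lists and 12750 (33.6%) in none. Peaks of both WT lists and no brd1/2/13 list were found at 110 genes (0.290%), and peaks of both brd1/2/13 lists and no WT list at 391 genes (1.03%). All 4 lists had a peak at 68.9% of the 27444 protein-coding genes, at 39.5% of the 3480 long non-coding RNA genes and at 10.9% of the 4843 pseudogenes. The mutant-only share was 1.04% of protein-coding, 1.64% of long non-coding RNA and 0.537% of pseudogenes.

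Lists of genes for chromatin factors and for seedling pathways were read beside this background. All 20 SWI/SNF subunit genes, all 12 histone acetyltransferase genes and all 12 BET bromodomain factor genes had a peak in each list, as had 11 of 12 histone deacetylase genes and 10 of 11 Polycomb and H3K27 demethylase genes. The exceptions were HDA18 and MEA, which had none. All 10 housekeeping genes had a peak in each list, whereas 3 of the 11 genes for seed maturation and 3 of the 7 for pollen had one. With the 1 kb upstream left out, the counts were 10 of 10, 0 of 11 and 2 of 7, since the bodies of CRC, SESA1 and OLEO1, the 3 seed maturation genes, did not hold peaks of all 4 lists. Among 15 photosynthesis genes, 9 had a peak in each list, and RBCS1A, RBCS1B, RBCS2B, RBCS3B, LHCB1.1 and LHCB2.1 had none in any.

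Of the 252 list members, 1 was WT-only and 2 were mutant-only. AGL24, a MADS gene that promotes flowering, had WT folds of 2.14 and 1.91 and no brd1/2/13 peak. MIR172A, a microRNA gene of the adult phase, had brd1/2/13 folds of 1.69 and 1.90, and CUC1, a boundary gene of the shoot apex, had folds of 2.04 and 1.80. The classes depended on the upstream 1 kb, since CUC1 had no peak in its body and the body of MIR172A did not hold peaks of both brd1/2/13 lists alone. By gene body, AGL24 and MIR156D, a microRNA gene of the juvenile phase, were WT-only, and LHCA1, a light-harvesting gene, was mutant-only. The folds of AGL24, MIR172A and CUC1 were near the lower end of the folds in their lists, which began at 1.37 to 1.44.

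Lists of developmental regulators differed in how many members had the mark. Of 13 floral organ identity genes 1 had a peak in each list, 6 in some lists and 6 in none, and of 13 meristem and boundary genes 3 had a peak in each list and 7 in none. FT, the florigen gene, AG and AP1 of flower development, and WUS and STM of the shoot meristem had no peak in any list. Of 17 flowering time genes 15 had a peak in each list, as had 11 of 20 vegetative phase change genes, 10 of 12 gibberellin genes, 12 of 13 abscisic acid genes, 8 of 13 auxin genes, 11 of 12 cytokinin response genes, 9 of 10 light signalling genes and all 7 heat response genes. CCA1 and LHY, the morning genes among the 12 clock genes, had none, while 9 of the 12 had a peak in each list.

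In the fold test, 9 regions at list members passed, 3 higher and 6 lower in brd1/2/13. Over all 22099 genes with a shared region, 3.10% had a called one. FLC, the repressor of flowering that vernalization silences, had 2 rising regions. At its start the folds were 3.21 and 3.67 in WT and 4.82 and 5.57 in brd1/2/13 (log2 change 0.52 ± 0.13, SE; limma adjusted p = 0.0095). At its end they were 3.73 and 2.96 in WT and 4.72 and 4.98 in brd1/2/13 (0.48 ± 0.13; limma adjusted p = 0.026). The region shared by GTE11, a BET factor gene, and its neighbour TPLATE, an endocytosis gene that held the summit, rose from 7.0 and 6.78 to 9.48 and 9.78.

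The falls were found at SYD, a SWI/SNF ATPase gene, where the folds were 5.44 and 5.83 in WT and 3.92 and 4.91 in brd1/2/13, and at GTE5, a further BET factor gene, where they were 8.02 and 8.67 in WT and 7.15 and 6.54 in brd1/2/13. HAG2, a histone acetyltransferase gene, fell from 3.37 and 3.78 to 2.46 and 2.65, and GI, a clock gene, from 3.37 and 3.63 to 2.42 and 2.63. A region upstream of HSP90.1, a chaperone gene, and one at the 3′ end of PSAD1, a photosystem gene, whose summit lay in the 5′ UTR of AT4G02760, were called lower as well. The groups of lists did not overlap at any of these genes, which largely follows from choosing the regions by a test on the same folds.

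Each of these 9 calls was lost when at least 2 of the lists were left out in turn. Without WT replicate 1, 6 were lost (limma adjusted p of the lost ones 0.0503 to 0.267), without WT replicate 2, 8 (0.057 to 0.435), without brd1/2/13 replicate 1, 5 (0.119 to 0.47), and without brd1/2/13 replicate 2, 7 (0.0643 to 0.593). Without centring on the list, 4 of the falls were lost (0.0694 to 0.0907).

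SVP, a MADS gene that represses flowering, was the only list member in the summit test, with a shift of -460 bp (SE 34.4; limma adjusted p = 0.040), and the adjusted p was 0.0946 to 0.319 in 6 of its 7 alternatives, among them every fit without 1 list. In no gene list did the median log2 fold change exceed 0.31 in size, and the largest came from floral organ identity, which had 1 measured member. Medians of lists with at least 10 measured members ranged from -0.08 in housekeeping genes to 0.17 in histone deacetylase genes, against -0.0021 over all genes with a shared region.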

How the data were processed

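Peak lists of chromatin immunoprecipitation sequencing were used as deposited, 1 list per sample. Per the submitters' processing notes, the authors used Bowtie, MACS2 2.1.1 and deepTools with TAIR10; read filters and the use of inputs are not given in the sources used here. The deposited columns are the peak's position, its score (10 times the -log10 q, as a whole number), its fold enrichment over the local background (a ratio), its -log10 p-value, its -log10 q-value and the distance of the summit from the peak start. Of the 20 lists, 18 were used, and the 2 lists of BRD2-dBromo were left out because no comparison here needs them.

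Peaks of chromosomes 1 to 5 that shared at least 1 bp were merged. A factor's region is a merged peak holding a peak of each of its 2 replicates. Places, gene classes and names came from RefSeq TAIR10.1, in the order given by the summit, with 1000 bp up- and downstream of genes. Where a list had several peaks in a region, the peak with the best score gave fold and summit. Width (log2 of the bases covered), summit position and fold (log2, less the list median) were fitted with limma 3.58.1 in R 4.3.3 (lists of both genotypes, empirical Bayes) with Benjamini-Hochberg adjustment and a threshold of 0.05. The interaction fits used the 8 lists of both marks. Whole lists were compared by exact permutation tests that enumerated the splits. Shares have 95% exact Clopper-Pearson intervals from scipy 1.17.1, which cover counting error only. The fits were tested on simulated data. The files hold no read totals, so depth was described by the background coverage, a low quantile of the local backgrounds of a list. These were solved from fold and p-value for 88.6% to 95.5% of the H4K5ac peaks, leaving out the strongest. Of the solved peaks, 100% gave a whole number of reads at the summit within 0.02.

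The members and gene lists were chosen with earlier results of these data known. Named were the 10 regions of each single-genotype class with the best worse rank by score, the 5 regions with the smallest adjusted p in each direction of a fit, and list members that were called or held by 1 genotype; further list members served as examples. The fold interaction, the occupancy shares under other settings and the genes that give the summit direction were added after seeing the data. Same-numbered replicates did not deviate together.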

Additional observations from a re-analysis of the deposited data

Results flagged for a closer look

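The change between genotypes differed between the marks in 132 of the 15010 regions that had a peak in all 8 lists of H4K5ac and H4K8ac, by the limma interaction on log2 fold after Benjamini-Hochberg adjustment. In 62 of these regions the H4K5ac change lay above the H4K8ac change, and in 70 below it. At MGE1, a mitochondrial co-chaperone gene, H4K5ac folds were 5.52 and 5.76 in WT and 4.77 and 3.61 in brd1/2/13, while H4K8ac folds were 1.92 and 2.29 in WT and 2.97 and 3.25 in brd1/2/13. The cause was not tested.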

How the results depend on the processing

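The count of WT-only regions was 421 with the central 200 bp of each peak, above the 288 to 335 of the mixed pairs. With equal numbers of peaks it was 271, above their 158 to 180. It was 209 with 50% of the region covered and 141 with -log10 q of at least 3. Both lay within the mixed pairs of these settings, 205 to 233 and 126 to 179. Leaving out each list in turn gave 399 to 621 WT-only and 944 to 1272 mutant-only regions, since 3 lists then decide a class. The difference in covered length was 0.599 Mb with -log10 q of at least 3 and 0.258 Mb with equal numbers of peaks, where the difference in median width reversed to 4.5 bp and the share of summits near starts differed by 1.42 percentage points. Leaving out each list moved the width difference between -7 and -3 bp. Summit calls numbered 24 for the summit relative to its peak centre and 0 in each of the leave-one-out fits, so all 10 named summit regions were lost there. Fold calls numbered 741 without centring and 165 to 220 with a list left out, and interaction calls 21 to 100.

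The correlation of same-numbered samples' deviations was -0.000515 for width, 0.056 for summit and 0.014 for fold, so the numbers did not pair the samples. With the replicate number as a block, 0 regions were called for width, 0 for summit and 551 for fold, 0 for the width interaction and 189 for the fold interaction. All 20 leading single-genotype regions kept their class under the 4 alternatives that changed how peaks were joined, covered or selected; leaving out a list cannot change the class of such a region. Of the 10 named fold regions, HPR3 lost its call without WT replicate 2, and 2 of the 10 were not tested without the weakest 25%. The background coverage was 24.2 to 28.6 reads, and its part in how many weak regions were called was not tested.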
